A study of Mus musculus with 8 samples.

Results

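The genes described here encode cytokines of the TNF, IL-6, IL-10 and IL-12 families, measured in tumour-associated macrophages of ATF3-deficient and wild-type mice. Of 10 listed genes (Tnf, Il6, Osm, Lif, Il10, Il12a, Il12b, Il23a, Il27 and Ebi3), 8 were matched to a probe through the probe's accession, by 9 probes among the 41174 on the array. Osm had 2 probes and the others 1 each. Il12b and Lif were not matched through the accessions of the RefSeq table used and are not analysed here. All 8 matched genes were among the 20886 genes tested, and all 9 probes were well above background on all 8 arrays, so that no member had to be set aside as dim.

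The macrophages came from breast tumours that grew for about 21 days from orthotopically implanted PyMT cells, mouse mammary tumour cells that express the polyoma virus middle T antigen, in C57BL/6 hosts. The hosts were ATF3 knockout (KO, 4 samples) or wild type (WT, 4 samples), and both received the same line of tumour cells. Cells positive for F4/80, a macrophage surface protein, and for CD45, a protein of all leukocytes, were sorted from the digested tumours, and total RNA was hybridised to 1-colour arrays. How the Atf3 allele was made, the age and sex of the hosts, and whether a sample is 1 mouse or a pool are not given in the sources used here. The p-values therefore measure only the spread between these samples, which may in part be technical.

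TNF is a trimeric cytokine that macrophages release early in inflammation, and it acts through a pair of TNF receptors to switch on NF-kB. IL-6, oncostatin M (Osm) and LIF share the signalling receptor chain gp130, encoded by Il6st, and signal through JAK kinases and STAT3. IL-10, which also signals through STAT3, restrains the production of inflammatory cytokines by macrophages. The IL-12 family consists of dimers that share chains. Il12a pairs with Il12b to form IL-12, Il23a pairs with Il12b to form IL-23, Il27 and Ebi3 together form IL-27, and Il12a with Ebi3 forms IL-35. ATF3 is a stress-induced basic leucine zipper protein that binds ATF/CRE sites. In mouse macrophages stimulated through Toll-like receptors it is known as a repressor of cytokine genes such as Il6 and Il12b.

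In the mouse genome (GRCm38.p6), Tnf lies at chr17:35199367-35202007, Il6 at chr5:30013114-30019975, Osm at chr11:4236785-4241026 and Il10 at chr1:131019845-131024970. Of the IL-12 family, Il12a lies at chr3:68690644-68698550, Il23a at chr10:128296140-128298084, Il27 at chr7:126589009-126595035 and Ebi3 at chr17:55952623-55957022. Which part of each transcript the probe covers was not analysed here. Because ATF3 binds CRE-type sites and its relatives bind AP-1 sites, the sequence before the start of these genes is shown first. RefSeq promoters (GRCm38.p6) were held for 4 of the 8 genes with a probe, namely Tnf, Il6, Il12a and Ebi3. Windows from 250 bases before to 50 bases after the start were searched on both strands for the CRE TGACGTCA, for its half-site TGACG, for the AP-1 motif TGANTCA and for the NF-kB consensus. The half-site is contained in the full CRE. Among 32851 promoters of this length in the table, 1.79% held the CRE, 20.8% the half-site, 7.81% the AP-1 motif and 4.51% the NF-kB consensus. The Il6 window held an AP-1 match at position −249, a half-site on the opposite strand at −135 and an NF-kB match at −44, counted back from the start. The Ebi3 window held an NF-kB match at −44. No match to these letters was found in the Tnf window or in either of the 2 Il12a windows. The 250 bases before the start of Il6, Tnf and Ebi3 are given 5′ to 3′, on the strand of the gene, with every match in capitals. They show a promoter with several matches, one with none and one with an NF-kB match only.
Il6, chr5:30012864-30013113, plus strand: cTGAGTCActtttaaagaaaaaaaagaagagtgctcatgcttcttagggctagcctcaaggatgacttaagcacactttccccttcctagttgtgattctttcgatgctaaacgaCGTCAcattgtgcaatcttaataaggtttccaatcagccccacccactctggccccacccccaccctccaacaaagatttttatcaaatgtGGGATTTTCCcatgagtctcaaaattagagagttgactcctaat
Tnf, chr17:35202008-35202257, minus strand: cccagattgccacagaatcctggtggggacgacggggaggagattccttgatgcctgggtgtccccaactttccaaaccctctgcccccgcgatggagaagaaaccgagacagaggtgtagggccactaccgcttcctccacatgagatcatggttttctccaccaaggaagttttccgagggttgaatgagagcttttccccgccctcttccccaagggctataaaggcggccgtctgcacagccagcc
Ebi3, chr17:55952373-55952622, plus strand: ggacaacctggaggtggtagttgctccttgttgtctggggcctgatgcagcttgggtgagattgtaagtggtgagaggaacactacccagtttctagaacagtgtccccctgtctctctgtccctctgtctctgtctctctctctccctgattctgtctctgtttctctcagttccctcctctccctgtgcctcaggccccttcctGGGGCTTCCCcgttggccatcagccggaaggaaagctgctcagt
A match is a description of the letters only, and binding was not measured.

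Each array had its 75th percentile of processed signal at 619 to 926 intensity units, with 63.7% to 68.0% of spots well above background. All levels below are log2 processed signals minus the array's own 75th percentile, so that 0 is the brightness of that percentile. A level compares samples for 1 probe and does not rank one gene against another. The Atf3 probe read 5.05 ± 0.31 in the KO samples and 4.80 ± 0.21 in the WT samples (SD, n = 4 each). The sources used here do not say whether this probe lies within the deleted stretch, so it cannot check the genotype labels, and KO and WT below are the labelled groups. The sort marker genes Adgre1, which encodes F4/80, and Ptprc, which encodes CD45, were close between the groups. Adgre1 averaged 4.07 ± 0.54 in KO and 4.14 ± 0.60 in WT samples, and Ptprc 4.42 ± 0.55 in KO and 4.52 ± 0.54 in WT samples.

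No cytokine gene passed the test between KO and WT macrophages. The limma test over all 20886 genes called 0 of the 8 members at an adjusted p under 0.05, against 0 of all genes (0.0%), and at an unadjusted p under 0.05 it held 0 members, against 3.37% of all genes (1.12% higher and 2.25% lower in KO). The groups overlapped for each of the 8 members, while 2.14% of all genes had groups that did not overlap (0.761% with KO above WT and 1.38% with KO below). Over all genes, 48.5% of the differences were positive. Of the 8 differences of the members, 3 were positive (Il6, Il23a and Ebi3) and 5 negative (Tnf, Osm, Il10, Il12a and Il27). Their median was −0.14 on the log2 scale, beside −0.0090 over all genes, and their median size without sign was 0.29, beside 0.18 over all genes. The limma adjusted p was 0.9999 for each member. The 95% interval of the difference reached beyond a 2-fold change for 7 of the 8, and lay within it for Il27 only. A change of 2-fold in at least 1 direction is therefore not excluded for the other 7. In these sorted populations, fewer cells of a type and less RNA per cell cannot be told apart.

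**Figure D1:**
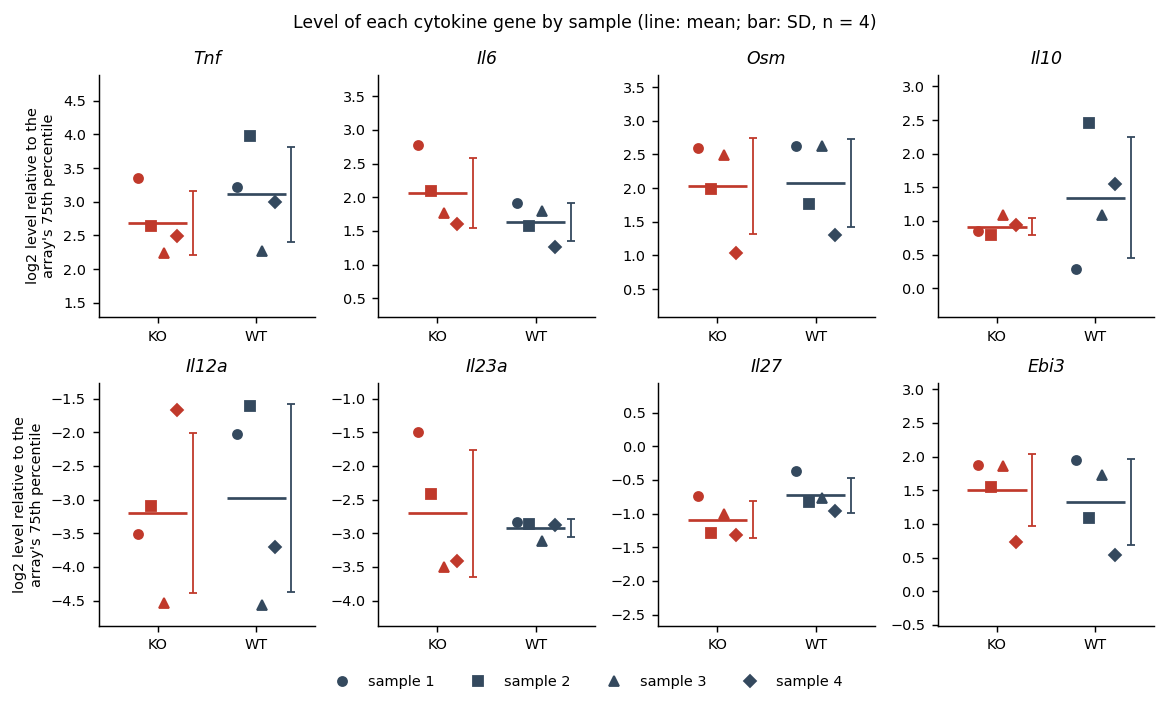
Log2 level of each of the 8 cytokine genes relative to the array's 75th percentile, KO samples left and WT samples right, with symbols for sample numbers 1 to 4, a line at the mean and a bar for the SD (n = 4 each). Each panel spans the same height on the log2 scale. KO and WT samples overlap in every panel, and samples of the same number lie at similar heights for Osm and Ebi3.

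Tnf, the early inflammatory cytokine of macrophages, measured 3.35, 2.64, 2.24 and 2.50 in KO samples 1 to 4, against 3.21, 3.97, 2.26 and 3.00 in WT samples 1 to 4. WT sample 2 was the highest of the 8, and both samples numbered 3 were the lowest. The mean was 2.68 ± 0.47 in KO and 3.11 ± 0.70 in WT samples (SD, n = 4 each), and the log2 difference was −0.43 (standard error 0.39). This corresponds to 0.742 times the WT level, with a 95% interval from 0.394 to 1.40 times. Without WT sample 2 the difference was −0.14, and without WT sample 3 it was −0.71. Neither was called.

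Il6, the inflammatory and acute-phase cytokine whose promoter carried the AP-1, half-site and NF-kB matches printed above, measured 2.78, 2.09, 1.76 and 1.61 in KO samples 1 to 4, against 1.91, 1.57, 1.80 and 1.27 in WT samples 1 to 4. KO samples 1 and 2 lay above all WT samples, while KO samples 3 and 4 lay within their range. The mean was 2.06 ± 0.52 in KO and 1.64 ± 0.28 in WT samples (SD, n = 4 each). The log2 difference of 0.42 had a standard error of 0.29, which is 1.34 times the WT level with a 95% interval from 0.841 to 2.14 times (limma unadjusted p = 0.185, adjusted p = 0.9999). Before scaling, the processed signals of Il6 were 4374, 3931, 2782 and 2393 in KO samples 1 to 4, against 2322, 1960, 2541 and 1897 in WT samples 1 to 4. Only WT sample 3 exceeded a KO sample there. In these unscaled signals the difference of Il6 was 0.60 and the median difference of all genes 0.16, while the negative differences of Tnf, Il10 and Il27 were smaller than with scaling, at −0.26, −0.26 and −0.18. Leaving out the scaling adds the same amount to the difference of every gene read on all arrays. The unscaled difference of a gene is thus fixed by its scaled one. The scaled difference of Il6 was 0.69 within slide 1 and 0.15 within slide 2. Without KO sample 1 the scaled difference was 0.18.

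Osm, a gp130 cytokine released by activated myeloid cells, measured 2.59, 1.98, 2.49 and 1.03 in KO samples 1 to 4, against 2.62, 1.76, 2.62 and 1.30 in WT samples 1 to 4. The samples numbered 1 and 3 were high and those numbered 4 were lowest in both genotypes. The difference between the group means was −0.05 with a standard error of 0.44. The second Osm probe, again lowest in the samples numbered 4, gave 0.09 with a standard error of 0.40, so that the sign differed between the probes.

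Il10, which dampens macrophage activation, measured 0.85, 0.79, 1.09 and 0.94 in KO samples 1 to 4, against 0.29, 2.46, 1.09 and 1.55 in WT samples 1 to 4. The 4 KO samples lay close together and inside the range of the WT samples, which held both the lowest and the highest value. The mean was 0.92 ± 0.13 in KO and 1.35 ± 0.90 in WT samples (SD, n = 4 each), and the log2 difference was −0.43 (standard error 0.42), which is 0.742 times the WT level with an interval from 0.378 to 1.46 times. Without WT sample 2, also the highest for Tnf, the difference was −0.06, and without WT sample 1 it was −0.78. The difference in spread between the groups was not tested.

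Among the IL-12 family, Il12a, the chain shared by IL-12 and IL-35, was the most variable. It measured −3.51, −3.09, −4.54 and −1.67 in KO samples 1 to 4, against −2.02, −1.61, −4.56 and −3.70 in WT samples 1 to 4. KO sample 4 and WT samples 1 and 2 were high, and both samples numbered 3 were lowest. The spot was 2.38 to 12.3 times as bright as its local background, the dimmest reading among the members. The difference was −0.23 with a standard error of 0.81, and it was −1.49 within slide 1 and 1.03 within slide 2.

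Il23a, the specific chain of IL-23, measured −1.49, −2.42, −3.50 and −3.42 in KO samples 1 to 4, against −2.83, −2.87, −3.12 and −2.88 in WT samples 1 to 4. The WT samples lay close together, with KO samples 1 and 2 above all of them and KO samples 3 and 4 below all of them. The mean was −2.71 ± 0.95 in KO and −2.92 ± 0.13 in WT samples (SD, n = 4 each), a difference of 0.22 with a standard error of 0.44. KO samples 1 and 2 lay on slide 1 and KO samples 3 and 4 on slide 2, and the difference was 0.89 within slide 1 and −0.46 within slide 2. Without KO sample 1 it was −0.19. The spot was 3.15 to 8.40 times as bright as its local background.

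Il27, the specific chain of IL-27, had the smallest unadjusted p of the members. It measured −0.74, −1.29, −1.01 and −1.32 in KO samples 1 to 4, against −0.37, −0.83, −0.77 and −0.95 in WT samples 1 to 4. KO samples 2, 3 and 4 lay below all WT samples, and KO sample 1 lay inside their range. The mean was −1.09 ± 0.27 in KO and −0.73 ± 0.26 in WT samples (SD, n = 4 each). The log2 difference of −0.36 had a standard error of 0.21, or 0.780 times the WT level with an interval from 0.557 to 1.09 times (limma unadjusted p = 0.128, adjusted p = 0.9999). The difference was −0.42 within slide 1 and −0.30 within slide 2. Before scaling, the processed signals of Il27 were 383, 378, 408 and 315 in KO samples 1 to 4, against 480.5, 371, 429 and 407 in WT samples 1 to 4, so that KO sample 2 lay above WT sample 2 there. Of the marker lists described below, the adipocyte mean had the strongest correlation with Il27 (r = −0.86, Spearman's rho = −0.69, n = 8 arrays). That mean is over 3 genes that did not share 1 direction. Among them Adipoq was well above background on 4 KO and 2 WT arrays only.

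Ebi3, the partner chain of IL-27 and IL-35, measured 1.88, 1.55, 1.87 and 0.74 in KO samples 1 to 4, against 1.95, 1.08, 1.73 and 0.54 in WT samples 1 to 4. As for Osm, the samples numbered 1 and 3 were high and those numbered 4 were lowest in both genotypes. The difference was 0.18 with a standard error of 0.39, and −0.08 without WT sample 4. The partners of IL-27 therefore had differences of opposite sign, neither of which was called, and the contrast between them was not tested.

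Samples carry the same numbers 1 to 4 in both genotypes, and same-numbered samples deviated together across genes. The samples numbered 2 did so least (r = 0.14, beside 0.15 for KO sample 4 with WT sample 2). Within same-numbered pairs of scaled levels, Il27 was the only member with 1 direction throughout, which did not hold for its unscaled signals. Its scaled KO minus WT differences were −0.37, −0.46, −0.24 and −0.36 for numbers 1 to 4. Over all genes, 17.1% had the same direction in all 4 pairs (7.38% higher and 9.71% lower in KO), so that 1 of 8 members is near the background. In a fit with the number as a block, Il27 had an unadjusted p of 0.0262 and an adjusted p of 0.635 in limma, where 7.58% of all genes lay under 0.05 unadjusted. Il6 was higher in KO in 3 of 4 pairs, with differences of 0.87, 0.52, −0.03 and 0.34. For Tnf the differences were 0.14, −1.34, −0.03 and −0.50, and for Il10 they were 0.56, −1.67, 0.00 and −0.61. Both of these means rest largely on the pair numbered 2. Il12a ran from −1.49 to 2.04 over the pairs and Il23a from −0.53 to 1.34, with 2 pairs on each side for each gene.

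**Figure D2:**
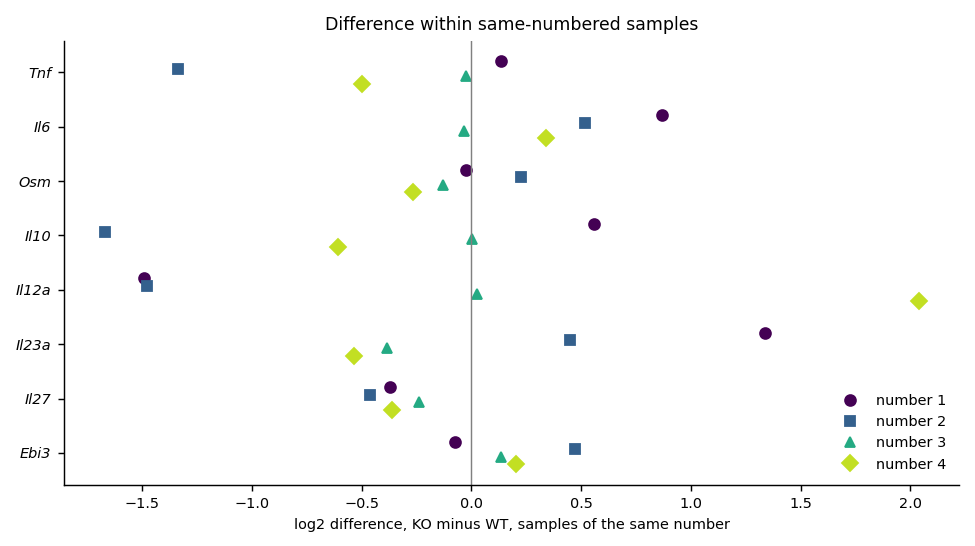
Log2 difference between the KO and the WT sample of the same number, for each cytokine gene (rows), with a symbol for each number. All 4 symbols lie left of 0 for Il27, between −0.46 and −0.24, and on both sides of 0 for the other 7 genes.

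The number accounted for most of the variation of Osm and Ebi3. It took 97.5% of the sum of squares of Osm over the 8 samples and 93.4% of that of Ebi3, and genotype took 0.161% for Osm and 3.10% for Ebi3. The number's share of the degrees of freedom is 42.9%, its median share over all genes was 66.3%, and 32.2% of all genes had a share over 80%. For the other members it took 39.6% (Il10) to 60.1% (Il27). Genotype took 38.0% for Il27, 25.4% for Il6, 14.7% for Tnf and 12.8% for Il10, and under 4% for the others, against 14.3% of the degrees of freedom and a median of 4.95% over all genes.

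Osm and Ebi3 followed the general leukocyte and macrophage genes over the 8 arrays. With Ptprc, Pearson's r was 0.97 for Osm and 0.93 for Ebi3, and with Adgre1 it was 0.92 and 0.88 (Spearman's rho 0.857 and 0.881 for Ptprc, 0.881 and 0.762 for Adgre1, n = 8 arrays, both genotypes together). With the mean of the tumour epithelial markers r was −0.85 for Osm and −0.77 for Ebi3. With the fibroblast mean it was −0.81 for Osm and −0.76 for Ebi3, and with the endothelial mean −0.74 for Osm and −0.85 for Ebi3, so that r was negative for each of these 3 lists. Summed as multiples of the 75th percentile, tumour epithelial markers (8 of 9 tested, 5 higher in KO, Csn2 well above background on too few arrays) ranged from 12.96 to 113 in KO and from 12.3 to 112 in WT samples. Macrophage markers (12 of 13 tested, 3 higher in KO) ranged from 265 to 511 in KO and from 258 to 513 in WT samples. Tnf and Il10 did not follow Ptprc, with r of −0.01 and −0.28. These values are descriptions, since the arrays share numbers and slides. Fibroblast markers (8 of 8 tested, 6 higher in KO) ranged from 11.5 to 59.7 in KO and from 10.6 to 49.0 in WT samples. Whether the share of other cells in the sorted population takes part in the levels of Osm and Ebi3 was not tested.

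**Figure D3:**
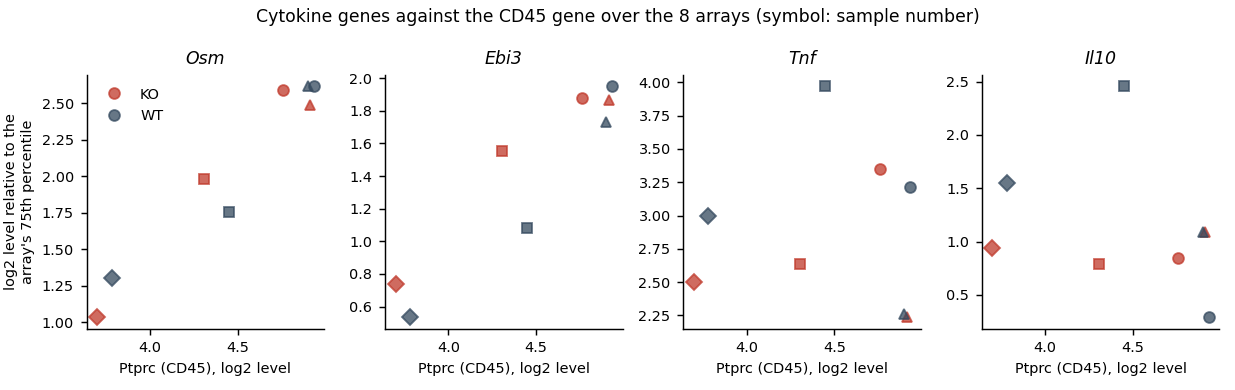
Log2 level of Osm, Ebi3, Tnf and Il10 (vertical) against that of Ptprc, the CD45 gene (horizontal), in KO and WT samples, with a symbol for each sample number. Osm and Ebi3 climb with Ptprc, and for Tnf and Il10 the WT sample numbered 2 lies above all others.

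Among the members, Osm and Ebi3 varied together (Pearson's r = 0.96, n = 8 arrays), as did Il6 and Il23a (r = 0.80), while Tnf and Il10, both highest in WT sample 2, had r = 0.48 but a Spearman's rho of 0, and Il6 and Tnf had r = 0.11. Spearman's rho was 0.833 for Osm with Ebi3 and 0.619 for Il6 with Il23a. The genes most like each member, among 13437 others with a symbol, were found by Pearson's r over the 8 arrays. For Osm these were Znfx1, the cholesterol exporter gene Abcg1 and Elovl1, an enzyme of fatty acid elongation (r = 0.992, 0.991 and 0.989). For Ebi3 they were Rassf5, the sialyltransferase gene St8sia4 and the glycogenin gene Gyg (0.991, 0.989 and 0.987). For Tnf they were Bcas1, the mitochondrial carrier gene Slc25a38 and the histone deacetylase gene Hdac7 (0.985, 0.964 and 0.961). Among the genes closest to Il6 were Jaml and the interferon-induced gene Oasl2 (0.942 and 0.936). Il10 was closest to the phosphodiesterase gene Pde4c, Enkd1 and Itih4 (0.961, 0.949 and 0.947), and Il27 to Cars2, the crystallin gene Cryga and Rasgrp4 (0.961, 0.960 and 0.954). Il12a was closest to Tmeff2, Nat8 and Cxxc4 (0.961, 0.959 and 0.952), and Il23a to Ctsm, the RNA helicase gene Upf1 and the cell death gene Bcl2l11 (0.946, 0.944 and 0.922). All these genes were picked for the highest r among 13437 over only 8 arrays. Whether such values exceed what that choice gives by itself was not tested. The spots of Il12a and Il23a were also dim, as given above.

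The balance between pairs of cytokines was compared as a difference of log2 levels within each array, for 2 pairs. Il6 minus Tnf was −0.57, −0.55, −0.48 and −0.89 in KO samples 1 to 4, against −1.30, −2.40, −0.47 and −1.73 in WT samples 1 to 4. WT sample 3 lay just above the KO range and the other 3 WT samples lay below it. The KO mean was −0.62 ± 0.18 and the WT mean −1.48 ± 0.81 (SD, n = 4 each), a difference of 0.85 that did not pass a two-sided exact permutation test (p = 0.143, and 0.286 after Benjamini-Hochberg adjustment over the 2). It was higher in KO in 3 of 4 pairs, and was 1.29 within slide 1 and 0.415 within slide 2. Tnf minus Il10 averaged 1.76 ± 0.57 in KO and 1.76 ± 0.78 in WT samples, and the exact permutation p was 1. With 4 samples against 4 the smallest p this test can give is 0.0286.

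Genes that receive, transmit or control these cytokine signals were read from lists for the same pathways. Of 91 listed genes, 87 were tested, 34 with a positive and 53 with a negative difference, and limma called 0. At an unadjusted p under 0.05 there were 2, both lower in KO (Pias3 and Zfp36l2), where 3.37% of all genes lay below that value. The groups did not overlap for 1 of the 87, beside 2.14% of all genes. That gene was Zfp36l2, whose WT arrays alone were enough to pass the filter on dim probes. In all 4 pairs, 8 of the 87 were lower and 4 higher in KO, beside 9.71% and 7.38% of all genes. The median difference was −0.06, beside −0.0090 over all genes. Of all genes, 48.5% had a positive difference. Without scaling the median difference of all genes was 0.16, so the counts of signs here and in each list below depend on the scaling. The shift is common to all genes, so a sign that turns without scaling tells nothing particular to that gene.

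Of the receptor genes, 10 of 12 were tested, 4 with a positive and 6 with a negative difference. The TNF receptor genes Tnfrsf1a and Tnfrsf1b differed by −0.17 and −0.27, and a second Tnfrsf1b probe gave −0.08. Both genes were lower in KO in 4 of 4 pairs, as were 9.71% of all genes. Tnfrsf1a was at 0.01 in the unscaled signals. Il6st, which encodes gp130, differed by −0.22, and the IL-10 receptor chain Il10ra by −0.13, which turned to 0.05 without scaling and 0.03 with normexp background correction. Il12rb1, a chain of the IL-12 and IL-23 receptors, differed by 0.26, and by −0.03 without WT sample 4. The signalling chain Il12rb2 differed by −1.28 with a standard error of 0.62, but it was well above background on 1 KO and 3 WT arrays only. Il23r was well above background on too few arrays to be tested.

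In the JAK, STAT and SOCS list, 6 of 15 genes had a positive and 9 a negative difference. Pias3, an inhibitor of STAT3, measured −1.45, −1.91, −1.78 and −1.30 in KO samples 1 to 4, against −0.62, −0.88, −1.33 and −1.18 in WT samples 1 to 4. The difference of −0.61 was negative in 4 of 4 pairs, although KO sample 4 lay above WT sample 3 (limma unadjusted p = 0.0291, adjusted p = 0.9999). Jak3 differed by −0.48 and by −0.37 and −0.18 at its other probes. Jak2 differed by −0.24 and by 1.11 at a second probe. Stat4 differed by 0.52, or −0.03 without WT sample 4. Stat3 and the feedback inhibitor Socs3 differed by −0.16 and −0.06. The sign of Stat3 and Socs3 turned without scaling, where they gave 0.01 and 0.11, and with normexp, where they gave 0.04 and 0.08.

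Genes of TNF release and signalling had 11 of 18 positive differences. Birc2, an inhibitor of apoptosis in the TNF receptor complex, differed by 0.27, the adaptor gene Tab2 by −0.28 (0.05 at its second probe), Map3k7, the kinase TAK1, by 0.35 (−0.15 with normexp) and Ikbkg, the NEMO subunit, by 0.32, with −0.37 at its second probe. The NF-kB feedback genes Nfkbia and Tnfaip3 differed by 0.12 and −0.06. Nfkbia gave −0.06 within slide 1 and Tnfaip3 0.11 without scaling and 0.06 with normexp. Cflar, which blocks caspase activation, differed by −0.16, or 0.01 without scaling.

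Genes of the IL-10 response had 3 of 12 positive differences. Tnip3, an NF-kB inhibitor, differed by −0.87 with a standard error of 0.44, Nfil3 by 0.35 (−0.06 without WT sample 4), Bcl3 by 0.22 and Gpr84 by −0.26 (0.06 without KO sample 4). Among the genes that control the decay of cytokine transcripts, 3 of 13 differences were positive. The largest in size belonged to Zfp36l2, which encodes a protein that binds AU-rich elements. It averaged −5.56 ± 0.15 in KO and −3.90 ± 0.92 in WT samples (SD, n = 4 each) and was well above background on 2 KO and 4 WT arrays. The groups did not overlap, and the difference of −1.67 with a standard error of 0.43 did not pass (limma unadjusted p = 0.00485, adjusted p = 0.9999). Its WT arrays alone were enough to pass the filter on dim probes. The non-overlap and the unadjusted p are therefore descriptions only. The deposited value table gave −0.93 and normexp −1.07. Zfp36, the related protein that destabilises Tnf transcripts, differed by −0.12, but by 0.06 without scaling and 0.10 with normexp, and the RNase gene Zc3h12a by −0.09, or 0.08 and 0.02 in these 2 settings. Pum2 differed by −0.10 (0.07 without scaling), and Dusp1, a phosphatase of stress kinases, by −0.09 (0.09 without scaling and 0.10 with normexp).

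Of the genes that induce these cytokines, 7 of 22 had a positive difference. The kinase gene Irak1 and its inhibitory relative Irak3 differed by −0.23 and −0.29, or by −0.06 and −0.11 without scaling, and the other probes of Irak3 gave −0.10 and 0.27. The adaptor gene Traf6 differed by −0.18 and the transcription factor gene Cebpd by 0.21. The co-receptor gene Cd14 differed by −0.13 (0.04 without scaling and 0.08 with normexp), Mapk14, the stress kinase p38 alpha, by −0.07 (0.10 without scaling and 0.11 with normexp), and Maf, a factor that drives Il10, by 0.01 (−0.40 within slide 2).

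**Figure D4:**
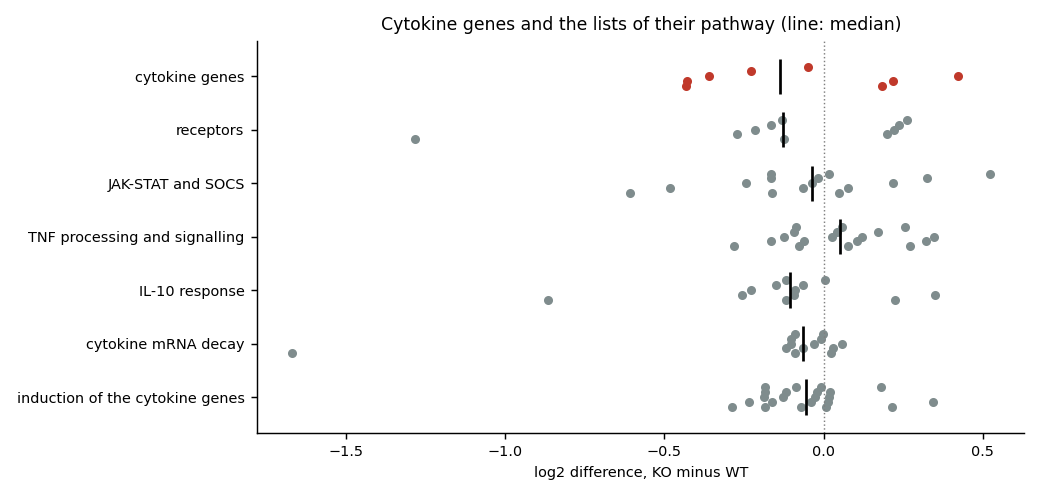
Log2 difference between KO and WT samples for each of the 8 cytokine genes (top row) and each tested gene of the 6 pathway lists, with a line at each median. Medians lie between −0.14 and 0.05, and Zfp36l2 at −1.67 and Il12rb2 at −1.28 lie farthest left.

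Markers of other cell types were read beside the cytokine genes. On the same summed scale, T cell markers (13 of 13 tested, 11 higher in KO) ranged from 8.26 to 21.2 in KO and from 6.69 to 16.4 in WT samples. NK cell markers (9 of 9 tested, 8 higher) ranged from 8.22 to 32.1 in KO and from 5.93 to 14.7 in WT samples. On the log2 scale the NK marker mean was −0.56 and −0.31 in KO samples 1 and 2, the samples highest for Il6 and Il23a, and −2.30 and −1.68 in KO samples 3 and 4. In WT samples 1 to 4 it was −1.40, −1.54, −2.55 and −1.99. Over the 8 arrays r with that mean was 0.78 for Il23a and 0.66 for Il6. This was not particular to NK cells. With the B cell marker mean (6 of 6 tested, 4 higher in KO) r was 0.75 for Il23a and 0.74 for Il6. With the dendritic cell mean it was 0.66 and 0.73. With the mast cell and eosinophil mean (6 of 9 tested, 4 higher in KO) it was 0.66 and 0.59. Monocyte markers (7 of 7 tested, 5 higher) ranged from 53.5 to 143 in KO and from 39.5 to 129 in WT samples, and r of Il6 with their mean was 0.83. Dendritic cell markers (8 of 10 tested, 6 higher) ranged from 9.96 to 24.5 in KO and from 5.06 to 18.6 in WT samples. Endothelial markers (8 of 10 tested, 8 lower) ranged from 2.09 to 4.42 in KO and from 2.13 to 8.97 in WT samples, with Tek and Erg well above background on fewer than 4 arrays. Their mean was highest in WT samples 4 and 2, at −0.43 and −1.02, the samples that were also highest for Il10. Over the 8 arrays Il10 and the endothelial mean had r = 0.56 and a Spearman's rho of 0.33 only. Between same-numbered samples 1 to 4, the KO minus WT difference of the NK marker mean was 0.84, 1.23, 0.25 and 0.31. That of the T cell marker mean was 0.80, 0.04, 0.32 and 0.44, and that of the endothelial marker mean −0.93, −1.44, −0.31 and −1.15. The endothelial mean leans on Sox17, which was well above background on 1 KO and 3 WT arrays only. In the pair numbered 3, Sox17 measured −8.02 in KO against −5.76 in WT. The monocyte and adipocyte means were also higher in KO in 4 of 4 pairs, by 0.02 to 0.54 and by 0.00 to 1.15. The adipocyte mean is over 3 genes only, which did not share 1 direction. Of single genes, 8 of the 13 T cell and 4 of the 9 NK cell markers were higher in KO in all 4 pairs, beside 7.38% of all genes, and 1 of the 8 endothelial markers was lower in all 4, beside 9.71%. Adipocyte markers (3 of 5 tested, 2 higher, Cidec and Lep well above background on too few arrays) ranged from 1.96 to 5.18 in KO and from 1.66 to 3.43 in WT samples. Among them Adipoq, which encodes adiponectin, measured −4.62, −4.38, −5.00 and −4.73 in KO samples 1 to 4, against −7.58, −6.81, −5.73 and −5.70 in WT samples 1 to 4. Its groups did not overlap, as was so for 2.14% of all genes (0.761% with KO above WT). It was well above background on 4 KO and 2 WT arrays (difference 1.77, limma unadjusted p = 0.00369, adjusted p = 0.9999). The KO arrays alone were enough to pass the filter on dim probes, so the non-overlap and the unadjusted p are descriptions only. Plin1, well above background on all 8 arrays, differed by −0.30 and was lower in KO in 4 of 4 pairs. Fabp4 differed by 0.39 and was higher in KO in 3 of 4 pairs. The part of these cells in the cytokine levels was not tested.

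**Figure D5:**
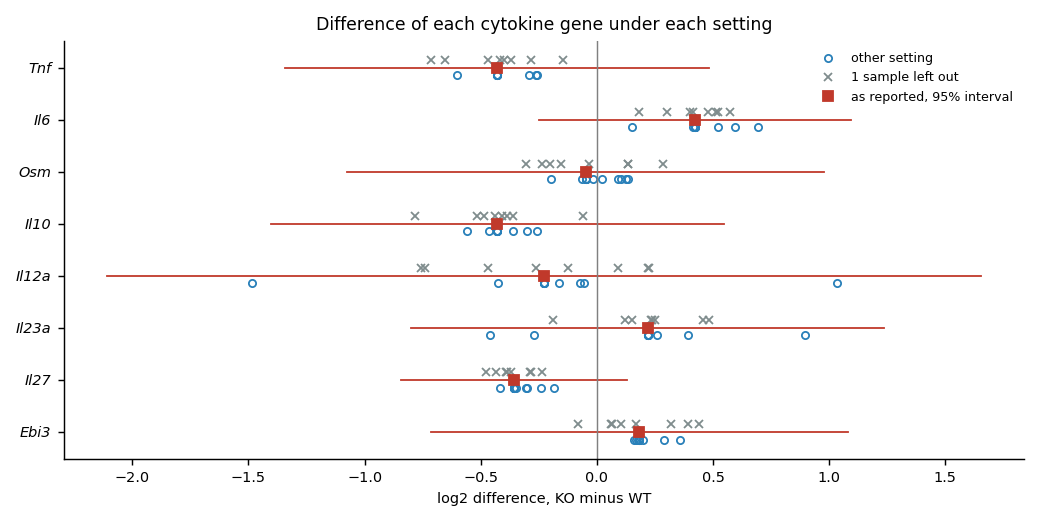
Log2 difference of each cytokine gene between KO and WT samples as reported, with its 95% interval (red), with 1 sample left out (crosses) and under each other setting (circles). Tnf, Il10 and Il27 stay left of 0 and Il6 right of 0 in all settings shown, and the other 4 genes cross 0 in at least 1. Settings that alter only the filter, the block or the variance model give the reported difference again.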

How the data were processed

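Per the labels' protocols, total RNA was amplified and labelled with Cy3. The deposited intensity values are processed signals of 1-colour Agilent arrays that the authors obtained with Feature Extraction 10.7.1.1, per the file headers (10.5 in the submitters' processing notes), with background already subtracted. Precision is limited by the number of arrays.

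Spots marked as control or outlier were removed, repeated spots averaged as log2 signal, and each array's 75th percentile subtracted. A probe was kept when any of its spots was well above background in 4 or more of the 8 arrays (27174 of 41174 probes), and the brightest stood for its gene. Accessions were named through the RefSeq table of GRCm38.p6 (25097 probes, with 16077 left unnamed). The two-sided test of KO against WT was limma 3.58.1 (lmFit, then eBayes; R 4.3.3), adjusted by Benjamini-Hochberg over 20886 genes and tested on simulated data. Exact permutation used scipy 1.17.1.

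The members and lists were chosen with earlier results of these data known. The text names all members, Atf3, the sort markers, up to 4 genes per pathway list by smallest p and up to 3 by highest level, 3 most alike genes per member by r, and markers by list; a few of these are not reported here. The planned difference between Il10 and Il12b was not computed, since Il12b was not matched.

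Deviations from the group means of same-numbered KO and WT samples correlated at 0.30, 0.14, 0.70 and 0.51 for numbers 1 to 4 over 20848 genes, all over the limit of 0.1. Pairing by number was therefore taken from the data, although KO sample 4 with WT sample 2 (0.15) and KO sample 2 with WT sample 4 (0.14) correlated about as much as the samples numbered 2. What a number shares is not given in the labels. Slide 1 held numbers 1 and 2, and slide 2 held 3 and 4, of both genotypes.

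The authors also deposited a table of intensity values of unstated scale, with column medians of 92 to 94, whose KO minus WT differences correlated at 0.938 with those of quantile-normalized processed signals. It served as an alternative, for the 5 members it was read for. Other alternatives were normexp (offset 50) on median signals, quantile normalization, no scaling, other filters and probe choices, slide or number as a block, each slide alone, trend and robust eBayes, and each sample left out.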

Additional observations from a re-analysis of the deposited data

How the results depend on the processing

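Over 21 alternatives, 0 cytokine genes and 0 genes of the pathway lists were called. Of all genes 0 were called, except without KO sample 1, where 1 was (Hc, which encodes complement C5, limma adjusted p = 0.0492, named after its value was seen), so that the count ranged from 0 to 1 over the left-out samples. The lowest limma adjusted p of a member in any setting was 0.635, for Il27 with the replicate number as a block (difference −0.36, standard error 0.11, limma unadjusted p = 0.0262). With that block 7.58% of all genes had an unadjusted p under 0.05, and the block changed no call. Sign flips within pairs gave an exact p of 0.25 for Il6 minus Tnf, where 0.125 is the smallest possible. Without scaling, which shifts all genes by the same amount, the differences of Tnf, Il10 and Il27 were −0.26, −0.26 and −0.18. Tnf, Il6, Il10 and Il27 kept their direction in every setting run. For several settings this was fixed in advance, since these genes have 1 probe each. A change of filter, block, variance model or probe choice leaves their difference as it is. Their ranges over the left-out samples were −0.71 to −0.14, 0.18 to 0.57, −0.78 to −0.06 and −0.48 to −0.24. Tnf, Il6 and Il10 were not read in the deposited table.

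The other members changed sign, and the cause was not tested. Osm gave 0.13 with normexp, 0.13 without scaling, 0.10 within slide 1, 0.092 at its second probe, 0.022 as the mean of its probes and −0.31 to 0.28 over the left-out samples. Il12a gave 1.03 within slide 2 and −0.76 to 0.23 over the left-out samples. Il23a gave −0.27 with normexp, −0.46 within slide 2 and −0.19 to 0.48 over the left-out samples, and Ebi3 −0.080 to 0.44 over these. Il6 minus Tnf ranged from 0.55 to 1.19 over the left-out samples, with 1.29 within slide 1 and 0.415 within slide 2. Tnf minus Il10, at −0.0018, gave 0.072 with normexp, 0.033 with quantile normalization, 0.039 within slide 2 and −0.25 to 0.38 over the left-out samples. Normexp moved the median difference of all genes to −0.13 and leaving out the scaling moved it to 0.16. Over all genes, the median 95% interval reached 0.745 to either side.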
